A study of Mus musculus with 4 samples.

Results

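The genes described are 10 that enteroendocrine cells use to make and pack their hormones: the granins Chga and Chgb and the hormone precursors Sct, Cck, Gcg, Gip, Sst, Nts, Pyy and Ghrl. They were taken by gene name from 4 mouse expression arrays, on which each had 1 probe, and they are 10 of 30119 named genes or transcripts. All samples came from wild type C57/BL6 mice, and total RNA was measured in an o-organoid sample, a y-organoid sample, a crypt sample and a whole intestine sample, with 1 array each. Crypts are the pits of the gut epithelium that hold its stem cells, and the labels call both organoid samples crypt-villus organoids, that is, epithelium kept as budding bodies in a dish. The sources used here do not state what o and y mean, the stretch of gut, the number of animals or how the organoids were cultured. The Cy3 labelling used 40 ng of o-organoid RNA and 20 ng of RNA of each of the other samples. RNA input and sample thus cannot be told apart in any comparison with the o-organoid array. The series title concerns acetylcholine made outside neurons and the stem cells marked by Lgr5.

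Enteroendocrine cells are scattered single cells of the gut epithelium that sense the gut contents and release peptide hormones into the blood. They arise from crypt stem cells through the transcription factor Neurog3, and Chga and Chgb are acidic proteins that help to condense the hormones in dense-core granules. The hormones are made as precursors that convertases such as Pcsk1 cut at pairs of basic residues. Secretin (Sct) calls for bicarbonate from the pancreas, cholecystokinin (Cck) makes the gallbladder contract, and Gip raises insulin release after a meal. In the gut Gcg gives the glucagon-like peptides, Pyy slows transit and lowers appetite, neurotensin (Nts) aids fat uptake, somatostatin (Sst) inhibits the release of other hormones and ghrelin (Ghrl) raises appetite. Gcg, Pyy and Nts are made mostly in the distal gut, and Cck, Gip and Sct mostly in the proximal small intestine. In mice, secretin and neurotensin are known to increase as enteroendocrine cells move from crypt to villus.

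Each signal is given on the log2 scale with the 75th percentile of its array set to 0. A difference between arrays is a difference of these signals, and 1 stands for 2-fold. There were no replicates, so no difference carries a test, and each compares 2 arrays and not 2 conditions. Spots well above background made up 51.9% to 58.7% of all spots other than controls. The SD of repeated spots on an array was 0.050 to 0.076 for probes at -2 or above and 0.16 to 0.28 for dimmer ones, and it leaves out the error of labelling, hybridisation and animals. Below, a gap counts as larger than spot noise where it exceeds 3 SDs of a difference between spots. Xist was above background on the intestine array only and Ddx3y on the other 3, so sex and tissue cannot be told apart in comparisons with intestine. Pancreatic markers were high on the intestine array: the insulin gene Ins2 had 5.23 there, against -1.48 on the o-organoid, -2.15 on the y-organoid and -1.55 on the crypt array.

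Probe sequences are shown for 3 hormones in which they can be read as part of the precursor. The reading frame was taken from general knowledge of these precursors; it has no stop codon in the probe, but other frames are open too. In capitals are adjacent pairs of lysine or arginine codons in the frame taken, which are not the same in other frames. In that frame the Nts probe covers codons of neurotensin itself. It lies at chr10:101944967-101945026 on the minus strand (build mm9, as in the files), and its last capitals mark the pair that follows the hormone; the first pair lies within it. The Pyy probe lies at chr11:101968311-101968370 on the minus strand, from the last codon of the hormone onwards. The Gip probe, at chr11:95886745-95887966 on the plus strand, spans 1222 bases of the genome with its 60 bases and so reads across an intron. In the frame taken it lies before the codons of the hormone and holds no such pair.
Nts: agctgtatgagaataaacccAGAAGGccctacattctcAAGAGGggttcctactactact
Pyy: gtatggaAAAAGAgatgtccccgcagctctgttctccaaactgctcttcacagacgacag
Gip: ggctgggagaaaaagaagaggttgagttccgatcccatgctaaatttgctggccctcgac

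All 10 members were well above background on all 4 arrays, so that no value is a bound and each member enters every count. The o-organoid array had the lowest signal of 7 members and the highest of none. The y-organoid array had the highest signal of 5, the crypt array of 4 and the intestine array of 1 (Pyy). The highest array and the next did not differ beyond spot noise for Gcg, Sst, Sct and Gip. The same held for the lowest array and the next for Sct, Nts and Pyy. The span from the highest to the lowest array was 2.32-fold for Gip, the narrowest, and 17.2-fold for Nts, the widest. Nts was dim on its lowest array (-2.92 on y-organoid), where repeated spots vary more.

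**Figure D1:**
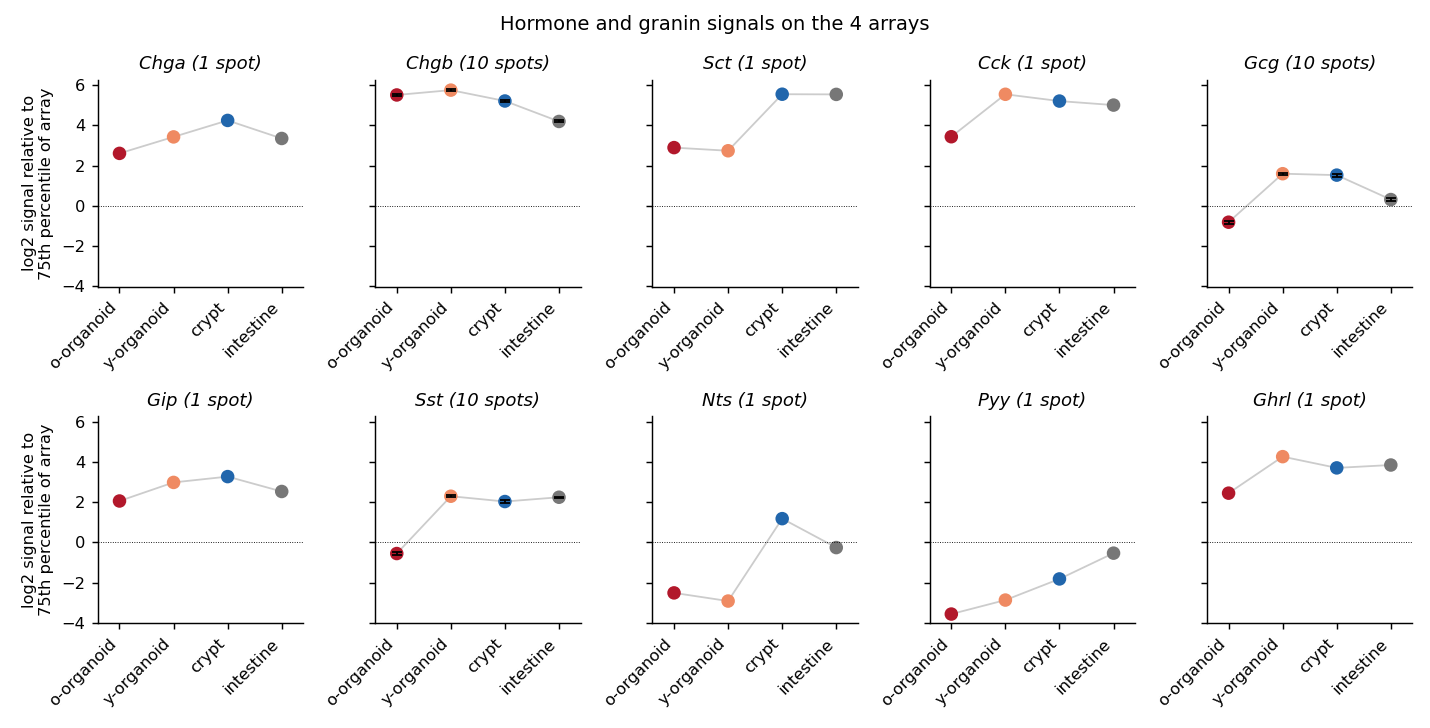
Log2 signal of each hormone and granin gene relative to the 75th percentile of its array (dotted line), 1 array per sample; bars are the SD of 8 to 10 repeated spots on an array for Chgb, Gcg and Sst, and lines join the 4 arrays of a gene. Sct, Nts and Pyy lie lower on both organoid arrays than on the crypt and intestine arrays. Cck, Gcg, Sst and Ghrl lie lowest on the o-organoid array, and Gcg also lies lower on intestine than on crypt and y-organoid.

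The granins differed from each other. Chga had a signal of 2.61 on the o-organoid, 3.43 on the y-organoid, 4.25 on the crypt and 3.35 on the intestine array. It was thus highest on crypt and lowest on o-organoid, and the y-organoid and intestine arrays did not differ beyond spot noise. Chgb had 5.52 ± 0.05 (SD of 10 spots) on the o-organoid, 5.76 ± 0.05 (9 spots) on the y-organoid, 5.22 ± 0.06 (10 spots) on the crypt and 4.20 ± 0.05 (8 spots) on the intestine array. Its order was y-organoid, o-organoid, crypt and intestine, and the spots of no 2 arrays overlapped. Chgb was the only member that was above crypt on both organoid arrays.

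Secretin, neurotensin and Pyy were lower on both organoid arrays than on the crypt and intestine arrays. Sct had 2.90 on the o-organoid, 2.74 on the y-organoid, 5.56 on the crypt and 5.55 on the intestine array. Neither the organoid arrays nor the fresh tissues differed among themselves beyond spot noise, and a gap of 2.65 lay between the pairs. Nts had -2.51 on the o-organoid, -2.92 on the y-organoid, 1.19 on the crypt and -0.25 on the intestine array. The organoid arrays again did not differ beyond spot noise, while crypt stood above intestine by 1.44. Pyy had -3.56 on the o-organoid, -2.87 on the y-organoid, -1.81 on the crypt and -0.53 on the intestine array. Its probe was the dimmest of the 10 on the o-organoid array and was the only one brightest on intestine. Ppy, its relative from the pancreatic islet, was at 0.16 on the intestine array and not above background on the other 3. The part of pancreatic RNA in the Pyy signal was not tested.

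Cholecystokinin, proglucagon, somatostatin and ghrelin were lowest on the o-organoid array, 2-fold or more below the y-organoid array. Cck had 3.44 on the o-organoid, 5.55 on the y-organoid, 5.21 on the crypt and 5.01 on the intestine array. Ghrl had 2.46 on the o-organoid, 4.27 on the y-organoid, 3.71 on the crypt and 3.86 on the intestine array. These were the closest pair of members, with a root mean square difference of 0.19 after each was centred on its mean over the 4 arrays. Sst had -0.55 ± 0.06 (SD of 9 spots) on the o-organoid, 2.30 ± 0.05 (9 spots) on the y-organoid, 2.04 ± 0.06 (10 spots) on the crypt and 2.25 ± 0.03 (9 spots) on the intestine array. Its spots on the y-organoid and intestine arrays overlapped, and those on the o-organoid array, at most -0.45, lay far below the lowest of any other array (1.94). Gcg had -0.82 ± 0.07 on the o-organoid, 1.60 ± 0.05 on the y-organoid, 1.53 ± 0.07 on the crypt and 0.31 ± 0.05 on the intestine array (SD of 10 spots each). Spots of the y-organoid and crypt arrays overlapped, and intestine lay between them and o-organoid. Gip had 2.07 on the o-organoid, 2.99 on the y-organoid, 3.28 on the crypt and 2.54 on the intestine array. Its pattern was closest to that of Chga, at a root mean square difference of 0.21.

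**Figure D2:**
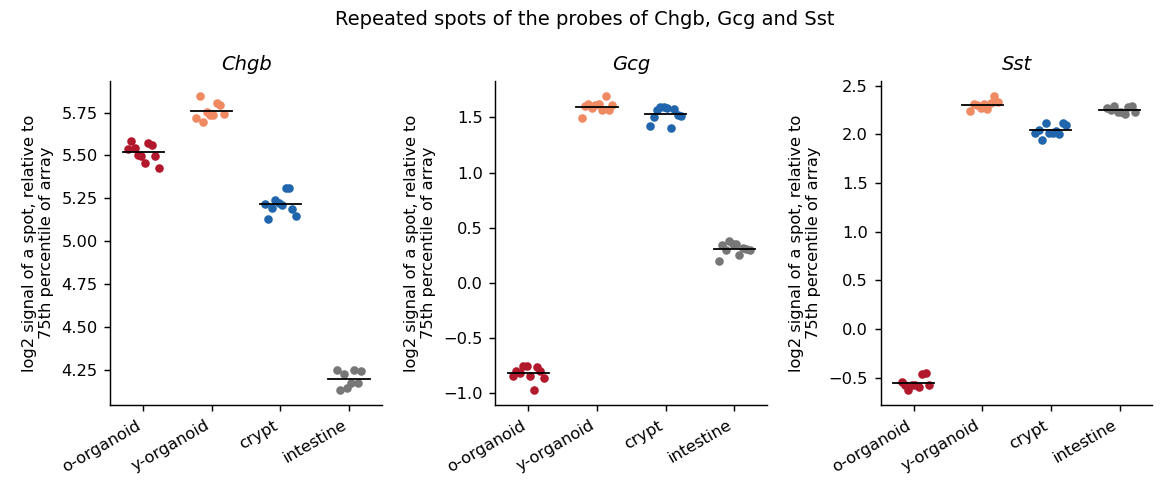
Single spots (points) and their mean (line) for the 3 members whose probe is spotted 10 times, as log2 signal relative to the 75th percentile of the array; outlier spots are left out. Spots of Gcg and Sst on the o-organoid array lie below those of every other array, and those of Chgb on both organoid arrays lie above crypt and intestine.

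Cultured o-organoid epithelium was set against the crypt, the compartment that holds the stem cells. Of the 10 members, 9 lay 2-fold or more below crypt on the o-organoid array. The same held for 13.5% of all 17198 genes that were above background on one or both of these arrays. The median difference of the members was -1.76 and that of all these genes 0.00 (-0.02 over genes measured on both arrays). In bulk RNA, fewer cells of a type and less RNA per cell cannot be told apart. Nts was 13.0-fold lower (difference -3.70), Sct 6.32-fold, Sst 6.02-fold (-2.59) and Gcg 5.08-fold (-2.34). Cck was 3.42-fold lower, Pyy 3.36-fold, Chga 3.12-fold, Ghrl 2.39-fold and Gip 2.32-fold, the narrowest of the 9. Chgb was 1.23-fold higher (0.30). No member was 2-fold or more above crypt, against 8.57% of genes. Gip and Ghrl came under 2-fold (-0.66 and -0.70) when arrays were centred on pan-epithelial genes, such as Epcam, which left 7 of the members beyond it, against 6.79% of all genes under that centring. At a 4-fold threshold 4 members were lower, against 4.38% of genes.

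Levels relative to Chga on the same array do not depend on how an array is scaled by a constant. On this measure, between the o-organoid and crypt arrays, Cck (1.10-fold lower), Pyy (1.08-fold lower), Ghrl (1.30-fold higher) and Gip (1.34-fold higher) stayed near Chga. Chga itself was 3.12-fold lower on the o-organoid array. Chgb was 3.84-fold higher relative to Chga, whereas Nts was 4.16-fold, Sct 2.03-fold, Sst 1.93-fold and Gcg 1.63-fold lower. The differences of the members from crypt were thus not of 1 size.

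The transcription factors of the enteroendocrine lineage lay mostly above crypt on the o-organoid array. Of 17 above background on either array, 8 were 2-fold or more higher and 1 lower, against 8.57% and 13.5% of all genes. The median difference of the factors was 0.97. It stayed between 0.32 (normexp background correction) and 1.52 (pan-epithelial centring) over the alternative settings. Neurog3, which starts the lineage, had 4.01 on o-organoid, against 1.64 on crypt, and was 5.18-fold higher. Its second probe was above background on no array. Rfx6 had a difference of at least 1.83, Pax4 1.68, Foxa2 1.44 and Neurod1 0.97. Levels of these factors include dim probes (Neurod1 was at -2.39 on the o-organoid array).

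Genes for processing and release of hormones were mixed between the o-organoid and crypt arrays. Of 9 processing genes 2 passed 2-fold lower and 1 higher, against 13.5% and 8.57% of all genes. The median of the processing genes was -0.14, and it turned to 0.36 under pan-epithelial centring. The convertase Pcsk1 was lower (-1.07) and so was Furin (-1.04), and the convertase Pcsk6 was higher (1.07). Pcsk2 differed by -0.14 and the carboxypeptidase Cpe by 0.62. Of 17 genes for granules and vesicle release 4 were higher and 4 lower, with a median of -0.25, and of 0.30 under pan-epithelial centring. The synaptic vesicle protein Syp had -2.79, Rab3c and the complexin Cplx2 -1.53 each, and the syntaxin Stx1a was 4.01-fold higher. Other probes of Cplx2 and Rab3c were mixed. For Cplx2, 1 had 0.88 and the rest lay between -1.58 and -0.81. For Rab3c, 1 had 0.25 and the other had -1.37. Among other hormone, granin and amine genes, 12 of 13 lay within 2-fold, with Tac1, the substance P precursor, at 0.69 and Tph1, which starts serotonin synthesis, at -0.97. The neuropeptide precursor Vgf had -1.11.

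Of 7 nutrient-sensing receptors above background, 2 were lower and 1 higher on the o-organoid than on the crypt array. Over all genes 13.5% were lower and 8.57% higher. The irritant channel Trpa1 had -3.44 and the sodium-glucose transporter Slc5a1, which enterocytes also use, had -2.35, whereas the fatty acid receptor Ffar4 had 1.96. The hormone receptor list held 9 genes above background, of which 1, the somatostatin receptor Sstr1, passed 2-fold lower (a bound of -1.39). The 12 pan-epithelial genes had a median of -0.31, with 2 beyond 2-fold lower and Epcam at 0.05.

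**Figure D3:**
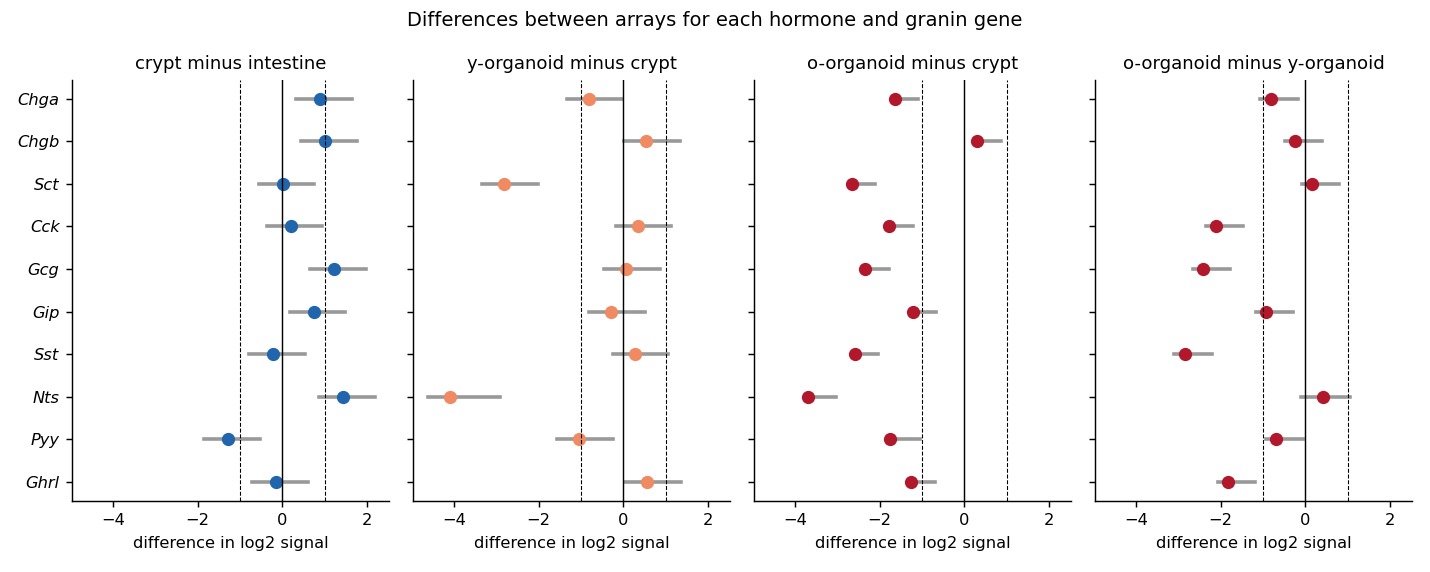
Difference in log2 signal for each hormone and granin gene between the arrays named above each panel; grey bars span the values over 7 alternative settings and dashed lines mark 2-fold. Between o-organoid and crypt, 9 members lie at or beyond 2-fold lower, and between y-organoid and crypt Sct and Nts lie apart from the rest.

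Between y-organoid and crypt fewer members differed. Nts, Sct and Pyy, 3 of 10, lay 2-fold or more below crypt on the y-organoid array, against 13.5% of all 17195 genes. None lay 2-fold or more above it, against 18.5% of genes, and the median difference was -0.11 for the members and 0.16 for all genes. Nts was 17.2-fold lower (-4.10) and Sct 7.04-fold (-2.82), the 2 members beyond 4-fold lower, against 4.39% of genes. With normexp background correction the difference of Nts was smaller (-2.92). Pyy was 2.07-fold lower. It fell under 2-fold with normexp background correction, with the percentile over probes above background and with pan-epithelial centring (-0.26). Chga differed by -0.82 and Gip by -0.29, the last within spot noise. Ghrl (0.56), Chgb (0.54), Cck (0.34), Sst (0.26) and Gcg (0.07) were above crypt by less than 2-fold. With pan-epithelial centring, Ghrl, Chgb, Cck and Sst, 4 of 10, passed 2-fold higher, against 48.3% of all genes under that centring. With the scaling of the deposited table Chga passed 2-fold lower (-1.34), which made 4 of 10 members lower against 26.6% of all genes, and the signs of Cck, Gcg and Sst turned.

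Relative to Chga on the same arrays, Nts was 9.73-fold and Sct 3.99-fold lower on the y-organoid than on the crypt array. Ghrl was 2.60-fold, Chgb 2.57-fold, Cck 2.23-fold and Sst 2.12-fold higher on this measure. Chga itself had -0.82 in this comparison. Without that reference Ghrl (0.56), Chgb (0.54), Cck (0.34) and Sst (0.26) were above crypt by less than 2-fold.

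Of 16 lineage transcription factors, 6 passed 2-fold higher and 1 lower against crypt, with a median of 0.69 (0.17 with the deposited scaling). Over all genes 18.5% passed 2-fold higher and 13.5% lower, the shares for each list of this paragraph. Neurog3 had 2.99 on the y-organoid array and was 2.55-fold higher, Etv1 had a difference of 1.54, Rfx3 at least 1.53 and Rfx6 at least 1.47. Atoh1, which sets secretory fate in general, had -1.25 and Neurod1 0.71. The 9 processing genes had 2 higher, 1 lower and a median of 0.59, with Cpe at 1.29, Pcsk2 at 0.96, Pcsk1 at 0.45 and Pcsk5 at -2.36, although the other probe of Pcsk5 had 0.12. In the granule and vesicle list 5 of 17 genes were higher and 1, Syp (-1.98), was lower, and the highest was Stx1a (2.34). Tac1 was 2.15-fold higher, Tph1 differed by -0.27, and Ddc, which makes serotonin and dopamine, had -2.63. The glucagon receptor Gcgr had 3.22 and the GIP receptor Gipr at least 2.20. Of 7 nutrient-sensing receptors 1, Slc5a1, was lower (-2.61). The pan-epithelial median was -0.64, with Epcam at -1.34 and the brush border gene Vil1 at -2.78.

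The organoid arrays differed from each other in 4 of 10 members. Cck, Gcg, Sst and Ghrl lay 2-fold or more lower on the o-organoid array, against 19.3% of all 17293 genes, and no member higher, against 8.25% of genes. The median difference was -0.87 for the members and -0.15 for all genes. Sst was 7.23-fold lower (-2.85), Gcg 5.33-fold (-2.41), Cck 4.33-fold (-2.11) and Ghrl 3.53-fold (-1.82). The first 3 of these passed 4-fold lower, against 3.02% of genes. These 4 kept a difference of at least 2-fold under every alternative setting at that threshold, at the least 2.21 on the log2 scale below y-organoid for Sst and 1.18 below for Ghrl. Gip (-0.93) and Chga (-0.82) lay within 2-fold and passed it with pan-epithelial centring (-1.17 and -1.06), under which 26.9% of all genes were lower. Sct (0.16), Nts (0.41) and Pyy (-0.70) did not differ beyond spot noise. With the deposited scaling Nts passed 2-fold higher (1.04), as did 25.5% of all genes.

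**Figure D4:**
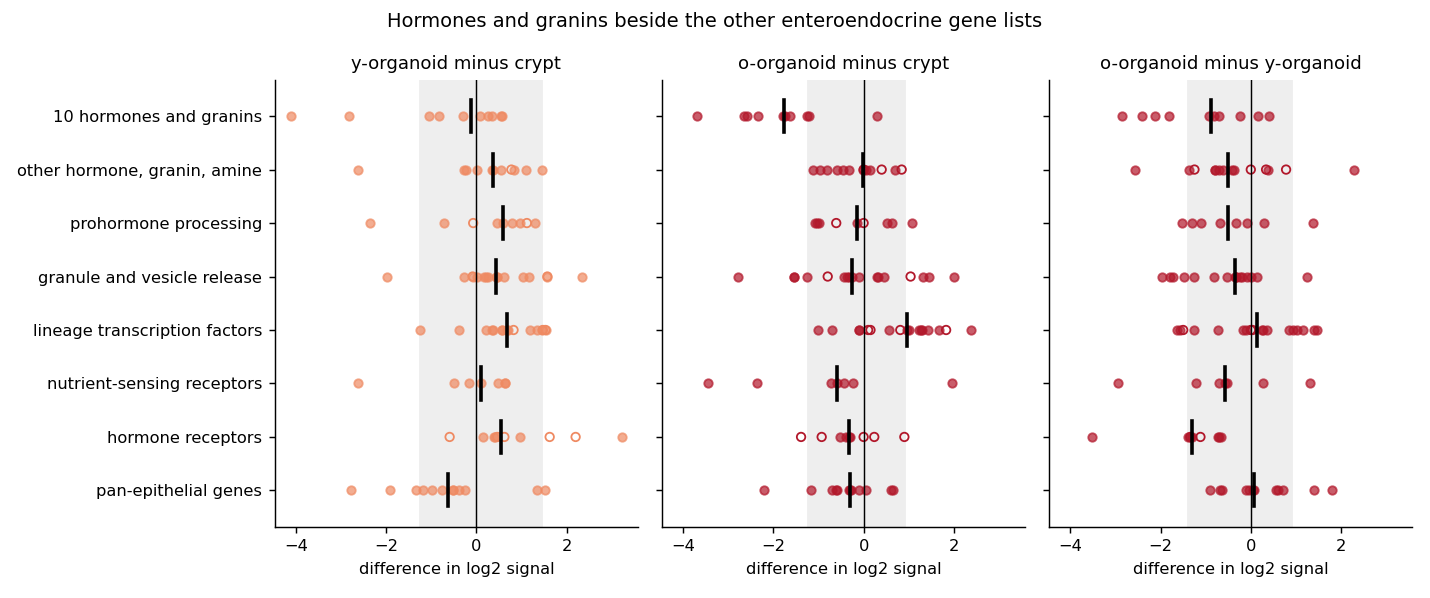
Difference in log2 signal of single genes (filled points measured on both arrays, open points bounds) and list medians (black bars) for the hormones and granins and 7 other lists; grey bands hold the middle 80% of all genes. The hormones and granins lie low between o-organoid and crypt, where the lineage transcription factors have a median above 0.

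Other enteroendocrine genes also lay on both sides of 0 between o-organoid and y-organoid. Of 18 transcription factors 4 passed 2-fold higher, among them Pax4 (1.47), Insm1 (1.39) and Neurog3 (1.02), and 4 lower, among them Etv1 (-1.63) and Lmx1a (-1.27). The median of the factors was 0.14, and -0.11 with normexp. Over all genes 8.25% passed 2-fold higher and 19.3% lower. Pcsk1 had -1.52, Pcsk2 -1.10, Vgf -2.57, Scg2 -1.37 and Rab3c -1.98, while Ddc had 2.30. The other probes of Rab3c had -2.33 and 0.62, the last not above background on both arrays. Trpa1 had -2.94. All 9 hormone receptors above background were lower on the o-organoid array, as were 56.1% of all genes. Of these receptors 6 were at least 2-fold lower, led by Gcgr (-3.52), and their median was -1.30. All of them but Gcgr and Sstr5 lay below -2 on both arrays, where repeated spots vary more. Glp1r and Sctr had only bounds, and the other probe of Glp1r, not above background on both arrays, had 0.25.

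The crypt was set against the intestine, which holds the whole wall. Nts (2.71-fold), Gcg (2.32-fold) and Chgb (2.03-fold) lay 2-fold or more higher on the crypt array, 3 of 10 members against 6.69% of all 18201 genes. Pyy (2.43-fold) was lower, against 14.4% of genes. At 4-fold 0 members were higher, against 0.357% of genes, and 0 lower, against 7.36%. The median difference was 0.47 for the members, 0.06 for all genes and 0.43 for the 12 pan-epithelial genes. Chga (0.90) and Gip (0.74) were above intestine by less than 2-fold. Sct (0.01), Cck (0.20) and Ghrl (-0.14) did not differ beyond spot noise, and Sst had -0.21. With the deposited scaling 5 members passed 2-fold higher and none lower, while 37.5% of all genes were higher and 8.49% lower. With pan-epithelial centring no member was higher and the median was -0.10, while 1.31% of genes were higher and 26.3% lower.

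Markers of other tissue moved with this comparison, in which 14.4% of all genes passed 2-fold lower on crypt and 6.69% higher. Of 11 islet and acinar pancreas genes above background, 10 passed 2-fold lower on crypt, and the linear signals of all 13, relative to the 75th percentile, summed to 3.05 on crypt and to 4947 on intestine. That sum was 3.62 on o-organoid and 4.25 on y-organoid. Cpa1, a pancreatic carboxypeptidase, had -3.82 on the crypt and 9.67 on the intestine array. Ins1 was not above background on crypt and had 5.03 on intestine. Islets also make Gcg, Sst and Pyy. The part of islet RNA in the intestine signal of these genes, or of any other member, was not tested. Of 10 enteric neuron genes above background, 7 were lower on crypt, led by the galanin gene Gal (-6.50), with Vip (a bound of -3.35), Stmn2 (a bound of -2.76), while Elavl4 had a bound of -0.83 and Snap25, which enteroendocrine cells also use, -0.09. Of 9 stomach genes on the array, only 3 were above background on intestine. Among these 1, the trefoil gene Tff2, was lower on crypt (a bound of -11.48, against 7.07 on intestine), and 2 lay within 2-fold. The part of stomach RNA in the intestine sample was not tested. The stomach list had 1 higher and 0 lower of 4 between o-organoid and crypt and 1 higher and 1 lower of 4 between y-organoid and crypt. Enteric neurons can express Sst, Cck and Nts as well, and the part of neuron RNA was not tested. Of 13 lineage transcription factors 4 were higher on crypt, led by Neurog3 (1.49), and 1, Etv1, was 4.01-fold lower. Pcsk2 had -3.15 on the crypt and -1.15 on the intestine array, Cpe was lower on crypt as well (-1.70), and Pcsk1 had 0.66, Tac1 1.07 and Tph1 0.30.

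No gene of these lists was among those with patterns most like a member. For each member the 3 nearest of 11938 annotated genes above background on all arrays were taken by root mean square difference over the 4 arrays. Of the 30 genes named in this way, 0 belonged to the lists. Ptprh (0.06) and Mertk (0.06) were nearest to Sct, Pigr (0.18) to Gcg, Siglece (0.27) to Nts, Shfl (0.20) to Sst, Nf1 (0.02) to Ghrl and Kifc2 (0.04) to Cck. No shared role is read from this likeness.

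Upstream sequences are shown for members at both ends of the range. These are Sct and Nts, which were 4-fold or more below crypt on both organoid arrays, Chgb, which was above crypt on both, and Sst, which was below crypt on o-organoid. Chga, Gip and Pyy were also below crypt on both organoid arrays, by less than 4-fold. The sequences are the 250 bases before the RefSeq start site in build GRCm38.p6, and all 10 members had an entry. Both strands were searched for TGACGTCA (the CRE, bound by the CREB family), TGANTCA (AP-1), TATAAA (the TATA box) and CANNTG (the E-box, bound by basic helix-loop-helix factors such as Neurog3 and Neurod1), each counted without regard to the others. In capitals are matches to the first 3. Some members have several RefSeq start sites, and the 10 members had 14 windows. A CRE was found in 2 of these windows, that of Chgb, from base -72 relative to the start site, and that of Sst, from base -48, against 1.56% of 32536 upstream windows. AP-1 was found in 2 of the 14 windows (1 of Nts and 1 of Ghrl), against 6.73% of all windows, and the TATA box in 2 (Sct and Gcg), against 12.3%. The E-box was found in 12 of the 14, against 66.2%, with at least 1 window in each member. Chgb and Sst, the members with a CRE, differed between o-organoid and crypt by 0.30 and -2.59.
Sct, chr7:141279134-141279383, minus strand: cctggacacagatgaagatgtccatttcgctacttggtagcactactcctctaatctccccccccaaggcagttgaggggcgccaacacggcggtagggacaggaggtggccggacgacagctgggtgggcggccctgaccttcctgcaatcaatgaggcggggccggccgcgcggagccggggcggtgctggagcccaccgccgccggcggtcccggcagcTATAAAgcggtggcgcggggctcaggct
Nts, chr10:102490419-102490668, minus strand: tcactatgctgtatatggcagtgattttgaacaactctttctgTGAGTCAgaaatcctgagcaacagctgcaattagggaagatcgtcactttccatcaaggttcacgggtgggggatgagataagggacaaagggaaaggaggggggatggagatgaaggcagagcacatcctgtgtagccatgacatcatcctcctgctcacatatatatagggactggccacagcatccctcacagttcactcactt
Chgb, chr2:132781392-132781641, plus strand: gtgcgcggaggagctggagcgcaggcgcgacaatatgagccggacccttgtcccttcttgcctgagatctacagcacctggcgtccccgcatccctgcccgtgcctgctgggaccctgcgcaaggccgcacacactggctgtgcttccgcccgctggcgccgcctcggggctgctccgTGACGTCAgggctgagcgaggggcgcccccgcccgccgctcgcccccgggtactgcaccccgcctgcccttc
Sst, chr16:23890845-23891094, minus strand: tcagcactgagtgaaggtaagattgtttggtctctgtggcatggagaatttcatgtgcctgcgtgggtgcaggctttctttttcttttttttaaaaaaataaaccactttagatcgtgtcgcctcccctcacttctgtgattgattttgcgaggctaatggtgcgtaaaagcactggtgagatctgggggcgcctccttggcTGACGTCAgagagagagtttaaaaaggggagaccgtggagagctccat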

How the data were processed

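Spot intensity was deposited by the authors as scanner output, written by Agilent Feature Extraction 10.7.3.1 per the file headers, with multiplicative detrending switched on and surrogate values in place of some dim spots. The deposited value table holds a ratio: dividing processed intensity by 1 constant per array gave every value to within 1%. All 4 arrays lay on 1 slide. Control and outlier spots were left out, log2 processed intensities were centred on the 75th percentile of each array, and spots of a probe were averaged. Where a gene had several probes, the brightest on average was used. A probe dim on an array was set to the lowest signal above background there, or its own if higher, and its difference called a bound. Where the dim array then came out higher, the difference was set to 0. Genes above background on at least 1 of 2 arrays were counted at 2-fold. Probes were named through RefSeq (GRCm38.p6) by accession, symbol or synonym, and 8054 of 39429 kept the name in the files. Members and lists were chosen with earlier results of these data known. The text names all members, up to 4 genes per other list and comparison with the widest difference, and Neurog3, Neurod1, Pcsk1, Pcsk2, Cpe, Tph1, Ins2, Cpa1, Elavl4 and Epcam, and the 3 genes nearest in pattern to each member, of which some are printed. Where outside this rule, Lmx1a, Atoh1, Tac1, Snap25, Stmn2, Vip, Ppy, Ins1, Sstr5, Xist and Ddx3y were chosen after their values were seen. Values of 1 gene that the rule names are not reported here. The lists hold other gut hormone, granin and amine genes, prohormone processing, granules and vesicle release, lineage transcription factors, nutrient-sensing receptors, hormone receptors, islet and acinar pancreas, enteric neurons, stomach epithelium and pan-epithelial genes. Mln and Gif were not matched to a probe here. Alternatives were normexp (limma 3.58.1, R 4.3.3, offset 50), quantile normalization, the deposited scaling, the 75th percentile over probes above background on all arrays, pan-epithelial centring, the mean of all probes, no filter on dim probes and a 4-fold threshold. The calling code was tested on simulated data. Values were computed in Python 3.11.15.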

Additional observations from a re-analysis of the deposited data

Results flagged for a closer look

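Cck, Ghrl, Sst and Gcg moved one way on the o-organoid array and the other way on the y-organoid array, each against the same crypt array. The difference between the organoids was not tested, since each had 1 array, and the crypt array is shared by both values. Cck had -1.78 on o-organoid and 0.34 on y-organoid, relative to crypt. Ghrl had -1.26 on o-organoid and 0.56 on y-organoid. Sst had -2.59 on o-organoid and 0.26 on y-organoid. Gcg had -2.34 on o-organoid and 0.0706 on y-organoid, the last within the noise of repeated spots. The positive values of Cck, Sst and Gcg turned negative with the deposited scaling, and the negative values kept their sign under the 7 alternatives that leave the threshold as it is.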

How the results depend on the processing

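No paired analysis was possible because each group has 1 array and no replicate numbers. The direction of o-organoid against crypt was kept for 10 of 10 members under all 7 alternatives of scaling, background, filter and probe rule, and the side of the 2-fold threshold for 8. Direction was kept for 6 of 10 members between y-organoid and crypt, 7 between o-organoid and y-organoid and 6 between crypt and intestine. The 75th percentile and the deposited median scale arrays differently: the median over genes measured on both arrays was 0.14 for crypt minus intestine and 0.89 with the deposited scaling, 0.11 and -0.41 for y-organoid minus crypt, -0.02 and 0.10 for o-organoid minus crypt, and -0.16 and 0.48 for o-organoid minus y-organoid. With pan-epithelial centring these medians were -0.42, 0.91, 0.53 and -0.40. For o-organoid minus crypt, the median of the members was -1.63 with normexp, -1.58 with quantile normalization, -1.64 with the deposited scaling, -1.59 with the percentile over probes above background and -1.21 with pan-epithelial centring; at 4-fold 4 members were lower. For o-organoid minus y-organoid, it was -0.75 with normexp, -0.23 with the deposited scaling (1 member higher, against 25.5% of all genes) and -1.11 with pan-epithelial centring. For y-organoid minus crypt, it was 0.12 with quantile normalization, -0.63 with the deposited scaling, 0.10 with the percentile over probes above background and 0.69 with pan-epithelial centring (4 members higher, against 48.3% of all genes). For crypt minus intestine, it was 0.35 with quantile normalization, 1.22 with the deposited scaling (5 members higher and 0 lower, against 37.5% and 8.49% of all genes), 0.28 with the percentile over probes above background and -0.10 with pan-epithelial centring (0 members higher, against 1.31%); 0 members were lower with normexp, and 0 higher and 0 lower at 4-fold. Shifts by 1 constant per array follow from the scaling itself; the cause of the others was not tested. The mean of all probes and no filter on dim probes changed no member's value, since each member has 1 probe above background on all arrays. Pyy and, on the organoid arrays, Nts were dim, and normexp moved them (Nts to -2.92 and Pyy to -0.32 for y-organoid minus crypt).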
